A study of Mus musculus with 2 samples.

Results

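Immediate early response genes are the genes that cells switch on first after a stimulus. The 10 described here were the Fos family genes Fos and Fosb, the Jun family genes Jun, Junb and Jund, the Egr genes Egr1, Egr2 and Egr3, and the neuronal genes Arc and Npas4. They were chosen by name, each was found once by its Ensembl gene ID, and together they were 10 of the 43346 Ensembl genes in the deposited tables. Their levels came from total RNA sequencing of whole midbrain of B6NCrl mouse embryos, a C57BL/6 substrain, at embryonic day 15.5. There were 2 libraries, each a pool of male and female embryos, with 78 embryos in replicate 1 and 62 in replicate 2. Both libraries form 1 group of healthy tissue, and the labels name no stimulus, inhibitor or other age to set the levels against. Each library was made from 10 ng of RNA longer than 200 nt, extracted with the mirVana kit, with ERCC spike-in RNA added. Pooling means that variation between single embryos was not measured.

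Transcription of immediate early genes needs no new protein. Signals such as growth factors, calcium entry and synaptic activity reach their promoters through kinases and through resident factors, chiefly SRF with its partners and CREB, and the transcripts are short-lived. Fos and Jun proteins pair to form the transcription factor AP-1, in which Jun proteins can also pair with each other whereas Fos proteins need a partner. Egr proteins are zinc finger transcription factors that bind GC-rich sites and are restrained by the Nab corepressors. In the brain Arc acts at synapses and Npas4 is a transcription factor induced by calcium entry in neurons, and the group is widely used as a readout of neuronal activity.

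The libraries held 38966386 and 40419493 expected counts (reads assigned to genes by estimate), of which spike-ins took 2.30% and 2.42%. TPM is a length-scaled share of all transcripts, so it can be compared between genes. A gene was called expressed where both libraries had at least 1 TPM, which held for 15347 genes. The midbrain label was checked against 9 midbrain marker genes. Of these 8 were expressed, with Gata3 at 88.0 ± 9.27 TPM, Meis2 at 66.4 ± 7.51 TPM and Otx2 at 66.2 ± 0.177 TPM (mean ± SD, n = 2 libraries here and throughout), and En2 was under 1 TPM in replicate 2.

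Jun and Jund made up most of the RNA of the 10 genes, while Fos lay at the threshold of expression and Npas4, Egr2, Egr3 and Fosb under it. The 10 genes summed to 93.57 and 84.53 TPM in replicates 1 and 2, of which Jun and Jund held 86.7% and 86.1%. Of the 10 genes 6 were expressed (Jun, Jund, Junb, Egr1, Arc and Fos), beside 62.4% of 21474 protein-coding genes. Their median level was 1.82 TPM in replicate 1 and 1.73 in replicate 2 (1.77 ± 0.0636 TPM). By the mean of the 2 libraries, only Jun and Jund lay above the median of protein-coding genes, 5.42 TPM, and Junb was above it in replicate 1 alone. By mean level the order was Jun, Jund, Junb, Egr1, Arc, Fos, Npas4, Egr2, Egr3 and Fosb. Between neighbours in that order the values of the 2 libraries did not overlap, with the exception of Npas4 and Egr2. With the deposited posterior means that pair turned, with Egr2 at 0.935 TPM above Npas4 at 0.505 TPM. The nearest of the other neighbours were Egr1 and Arc, whose TPM values differed by 0.16 ± 0.11 log2 units. The 95% counting intervals of Egr1 and Arc overlapped, as did those of Egr2, Egr3 and Fosb with their neighbours in at least 1 library. In whole tissue, few cells with much of an RNA and many cells with little of it cannot be told apart.

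**Figure D1:**
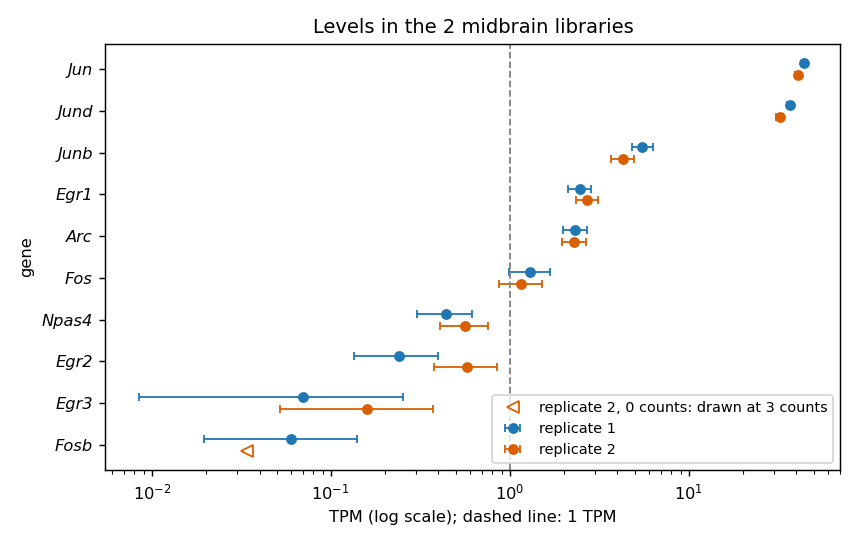
Level of each of the 10 genes in TPM on a log axis, with 1 point per library, bars for the 95% counting interval, a dashed line at 1 TPM and a triangle at the level of 3 counts for Fosb in replicate 2. Jun and Jund stand above 30 TPM, Junb, Egr1 and Arc between 2 and 6 TPM, and Fos at the line.

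The sequences before the transcription start are shown so that motifs of the factors known to induce such genes can be looked for in them. RefSeq promoter windows (GRCm38.p6) ran from 250 bases before a start to 50 after it. The search covered 11 windows of 7 of the 10 genes, Jun, Junb, Jund, Fos, Fosb, Egr2 and Npas4. Promoters of Egr1, Egr3 and Arc were not searched, so the tallies below say nothing of their motifs. Their absence here does not show that they lack a RefSeq window. Both strands were searched for the CRE TGACGTCA, its core TGACG, the AP-1 site TGAGTCA, the TATA box TATAAA, the EGR site GCGNGGGCG and the CArG box bound by SRF. A full CRE also holds the core, and the other motifs can overlap by chance. The stretches below run 5′ to 3′ on the gene's strand up to the base before the RefSeq start, with motif matches in capitals. They are Fos at chr12:85473640-85473889 on the plus strand, Junb at chr8:84978749-84978998 on the minus strand and Jun at chr4:95052223-95052472 on the minus strand.
Fos: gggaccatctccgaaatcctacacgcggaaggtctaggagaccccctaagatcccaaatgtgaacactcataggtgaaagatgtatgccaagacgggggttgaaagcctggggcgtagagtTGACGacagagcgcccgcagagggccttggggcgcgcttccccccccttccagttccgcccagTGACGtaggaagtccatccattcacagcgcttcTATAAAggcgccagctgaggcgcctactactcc
Junb: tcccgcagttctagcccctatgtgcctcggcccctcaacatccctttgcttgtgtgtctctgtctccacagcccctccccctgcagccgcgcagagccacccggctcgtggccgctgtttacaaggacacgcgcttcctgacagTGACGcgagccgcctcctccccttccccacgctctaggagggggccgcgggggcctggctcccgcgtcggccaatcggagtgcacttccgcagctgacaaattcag
Jun: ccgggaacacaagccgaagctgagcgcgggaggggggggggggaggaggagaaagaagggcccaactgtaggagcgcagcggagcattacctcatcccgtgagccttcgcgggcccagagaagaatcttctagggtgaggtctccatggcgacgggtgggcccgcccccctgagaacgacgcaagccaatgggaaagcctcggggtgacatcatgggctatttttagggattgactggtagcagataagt
The Fos stretch has CRE cores starting 129 and 66 bases before the start and a TATA box starting 33 bases before it. The Junb stretch has a CRE core 106 bases before the start, and its window also holds a TATA box at the RefSeq start itself. That start is base 84978748, whereas the GENCODE M21 annotation starts Junb-201 further downstream, at 84978718. The TATA box thus lies before the M21 start. In the Jun stretch none of the 6 motifs was matched, nor in the Jund window. That window surrounds the RefSeq start of Jund at 70697739 and does not reach the GENCODE M21 start at 70698949. Only the motifs as given were searched, so variants of them were not looked for. Shorter stretches show paired sites, Egr2 at chr10:67537793-67537822 on the plus strand and Npas4 at chr19:4990128-4990157 on the minus strand.
Egr2: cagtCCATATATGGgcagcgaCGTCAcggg
Npas4: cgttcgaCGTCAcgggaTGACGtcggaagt
The Egr2 stretch holds a CArG box, 72 bases before the start, followed by a CRE core on the other strand, 55 bases before the start. The Npas4 stretch holds CRE cores on both strands, 179 and 169 bases before the RefSeq start at 4989971. GENCODE M21 starts Npas4-202 at that base but Npas4-201 further upstream, at 4990316. The stretch thus lies inside the first exon of the M21 Npas4-201. The deposited Npas4-201 is shorter, 3277 nt beside 3622 nt in M21. Over the 7 genes, the CRE core was matched in 5 (Egr2, Fos, Fosb, Junb and Npas4), the TATA box in 2, the EGR site in 1 (Fosb), the CArG box in 1 (Egr2), and the full CRE and AP-1 site in 0. Of 32851 windows of this length in the RefSeq table, 20.8% held the CRE core, 13.6% the TATA box, 5.55% the EGR site, 1.63% the CArG box, 1.79% the CRE and 5.2% the AP-1 site. These shares are per window, whereas a gene was counted if any of its windows matched, and Egr2 had several. A match describes letters in these windows and is not evidence of binding. Sites more than 250 bases before a start were not searched, so a missing match does not show that a gene lacks the motif.

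Jun, the founding partner of AP-1, was the most abundant of the 10 genes. Its level was 44.26 TPM in replicate 1 and 40.59 in replicate 2, a mean of 42.4 ± 2.60 TPM, above 72.7% of expressed genes. The gene is a single exon on the minus strand of chromosome 4 (95049034 to 95052222, mm10), and 3194.59 and 3024.75 expected counts fell on it. Jund, the family member known for steady expression in resting cells, followed at 36.9 and 32.2 TPM (34.6 ± 3.32 TPM; chromosome 8, 70698949 to 70700616, plus strand, 1 exon). Junb, which often opposes Jun in growth control, was at 5.51 and 4.29 TPM (4.90 ± 0.863 TPM; chromosome 8, 84974484 to 84978718, minus strand). All of the Jun genes were thus higher in replicate 1, and the values of the 3 genes did not overlap. In TPM, Jun exceeded Junb 8.03-fold in replicate 1 and 9.46-fold in replicate 2, whereas Jun exceeded Jund by only 0.30 ± 0.05 log2 units.

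The order of Jun and Jund depended on the length and the counts given to Jund. The deposited tables gave Jund a transcript of 2878 nt, the same length as the RefSeq gene span from 70697739 to 70700616. GENCODE M21 starts the transcript 1210 nt further downstream and gives it 1668 nt. With M21 lengths, an alternative chosen after seeing the data, the same Jund counts gave 65.4 and 57.0 TPM (61.2 ± 5.89 TPM), above Jun in both libraries. All counts were kept, and how many fell on the 1210 nt outside the M21 model is not known here. Any counts there would make these values too high for that model. A second gene, Gm11175, lies on the other strand inside the Jund exon (70699162 to 70700080), and all 877 of its exonic bases overlap that exon. It was assigned 620.76 and 547.31 expected counts, equal to 25.9% and 25.4% of those of Jund. The posterior SD of the count was identical for both genes, 20.28 in replicate 1 and 19.5 in replicate 2. Strand use in the counting is not given in the sources used here, so reads from these overlapping genes cannot be told apart. Adding the counts of Gm11175 to Jund, also chosen after seeing the data, gave 46.5 and 40.4 TPM (43.4 ± 4.31 TPM), above Jun in replicate 1 and just below it in replicate 2. Jun itself overlaps the antisense gene Junos over 232 exonic bases, and Junos was assigned only 0.952% and 0.636% as many counts as Jun. Here too both genes had the same posterior SD of the count, 1.7 in replicate 1 and 1.84 in replicate 2. Whether reads were shared between them was not tested. In GENCODE M21, Junb-202 shares 173 exonic bases with Prdx2, a peroxiredoxin gene on the other strand, to which 27921.9 and 26931.7 counts were assigned. The deposited tables list only Junb-201, whose M21 exon, 84976910 to 84978718, does not overlap Prdx2. The posterior SD of the count of Junb was 0 in both libraries.

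**Figure D2:**
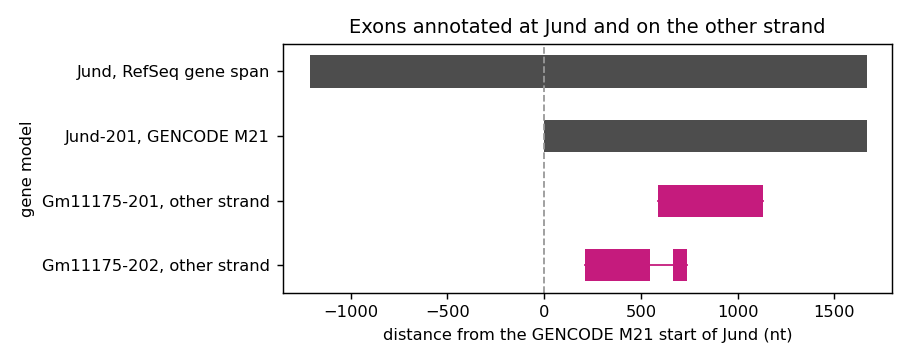
Exons annotated at Jund and on the opposite strand, drawn to scale as distance in nt from the GENCODE M21 start of Jund (dashed line). The RefSeq span reaches 1210 nt further upstream than the M21 model, and both transcripts of Gm11175 (pink) lie within the Jund exon.

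Fos, the classical activity marker and partner of Jun in AP-1, stood at the threshold of expression. It was at 1.30 TPM with 61 counts in replicate 1 and 1.16 TPM with 56 counts in replicate 2 (1.23 ± 0.0990 TPM; chromosome 12, 85473890 to 85477273, plus strand), above 1.32% of expressed genes. The 95% exact counting intervals, 0.994 to 1.67 TPM and 0.876 to 1.51 TPM, reached below the threshold of 1 TPM in both libraries. The deposited posterior means were higher, 1.75 and 1.51 TPM, and the deposited intervals around them, 1.21 to 2.34 and 1.05 to 2.01 TPM, lay above the threshold. Fosb, a second Fos gene whose short splice form accumulates with repeated stimulation, had 5 counts in replicate 1 and 0 in replicate 2, or 0.06 and 0.00 TPM (chromosome 7, 19302696 to 19310051, minus strand). For a count of 0 the limit was taken as 3 counts, here 0.0341 TPM, and the upper end of the 95% exact interval used for the other genes was 0.0419 TPM. The tables list 1 Fosb transcript where GENCODE M21 has 7, so its splice forms were not separated.

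RNA of the Jun genes far exceeded RNA of the Fos genes. The summed level of Jun, Junb and Jund was 86.67 and 77.08 TPM, and that of Fos and Fosb 1.36 and 1.16 TPM. The ratio was 63.7-fold in replicate 1 and 66.4-fold in replicate 2, or 6.02 ± 0.04 log2 units, and the Jun genes held 98.5% of the family sum in each library. Of 10 other AP-1 and related leucine zipper genes, 4 were expressed, and the list median was 0.890 ± 0.0212 TPM. The small Maf genes Mafg (35.1 ± 1.51 TPM) and Mafk (15.1 ± 0.269 TPM) led it, followed by the Fos-related gene Fosl1 (1.56 ± 0.0141 TPM). Fosl2, the fourth Fos family gene, was at 0.380 ± 0.0990 TPM, below Fos in both libraries.

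Egr1, the Egr gene most used as an activity marker, was the highest of its family. It was at 2.46 TPM with 180 counts in replicate 1 and 2.70 TPM with 200 counts in replicate 2 (2.58 ± 0.170 TPM; chromosome 18, 34859823 to 34864984, plus strand). Egr2, known from hindbrain segmentation and Schwann cell myelination, was at 0.24 and 0.58 TPM with 15 and 26 counts (0.410 ± 0.240 TPM; chromosome 10, 67535475 to 67542188, plus strand). The deposited posterior means of Egr2 were 0.77 and 1.10 TPM (0.935 ± 0.233 TPM), and the deposited interval in replicate 1, 0.331 to 1.29 TPM, lay above the point estimate. Egr3 was at 0.07 and 0.16 TPM with 2 and 5 counts (0.115 ± 0.0636 TPM; chromosome 14, 70077203 to 70082614, plus strand). All of the Egr members were nominally higher in replicate 2, where counts of Egr2 and Egr3 were still few. Egr1 exceeded the sum of Egr2 and Egr3 7.94-fold in replicate 1 and 3.65-fold in replicate 2, or 2.43 ± 0.79 log2 units. With posterior means that difference was 1.26 ± 0.30 log2 units. Egr2 made up most of that sum in both libraries. For Egr2 the TPM ratio of replicate 2 to replicate 1 was 2.42 while the ratio of normalized counts was 1.66. The effective length given to the gene was 2703.9 nt in replicate 1 and 1863.44 nt in replicate 2. The tables hold 1 Egr3 transcript of 1416 nt, whereas GENCODE M21 also has Egr3-204 of 3940 nt. Whether reads from the longer model were counted was not tested. Egr4 had 2 and 1 counts (0.0300 ± 0.0141 TPM). The corepressor genes Nab1 (6.17 ± 0.106 TPM) and Nab2 (1.87 ± 0.438 TPM) were both expressed, and their sum, 8.27 and 7.8 TPM, exceeded Egr1 in both libraries.

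Arc, which encodes a capsid-forming protein that regulates AMPA receptor trafficking at synapses, was at 2.33 TPM with 161 counts in replicate 1 and 2.29 TPM with 163 counts in replicate 2 (2.31 ± 0.0283 TPM; chromosome 15, 74669083 to 74672570, minus strand). These values differed less between the libraries than those of any other expressed member. The 9 listed partners of Arc were all expressed, with a median of 55.3 ± 2.28 TPM. They were led by the kinase subunit gene Camk2b (115 ± 6.49 TPM) and the endophilin genes Sh3gl1 (92.4 ± 2.13 TPM) and Sh3gl3 (61.0 ± 0.297 TPM). Npas4 was below the threshold at 0.44 and 0.56 TPM with 33 and 43 counts (0.50 ± 0.0849 TPM; chromosome 19, 4984355 to 4990316, minus strand). Its dimer partners were expressed in 3 of 3 cases, with Arnt2 at 72.0 ± 4.11 TPM, Arnt at 15.3 ± 1.05 TPM and Arntl at 11.5 ± 0.615 TPM. Arnt2 exceeded Npas4 157-fold in replicate 1 and 134-fold in replicate 2. For Arc and Npas4 alike, the listed partners were thus higher in TPM than the member itself.

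Transcript tables listed 21 transcripts for the 10 genes, and only Fos, Egr1, Egr2 and Arc had more than 1. Egr1-202 took 86.6% of the gene's abundance in replicate 1 and 90.7% in replicate 2, and Egr1-201 took the rest. For Fos the coding transcript Fos-201 took 100% in both libraries by the point estimate, but 66.8% and 71.0% by the deposited posterior mean, which spreads weight to 3 shorter noncoding transcripts. Arc-201 took 100% in replicate 1 and 66.2% in replicate 2, with Arc-202 taking the other 33.8%. The lengths of the Arc transcripts, 3055 and 3054 nt, are almost equal, and the posterior SD of their counts was 25.42 and 27.04 beside 161 and 163 counts for the gene. In Egr2 the leading transcript differed, with Egr2-203 at 54.0% in replicate 1 and Egr2-205, a transcript of 773 nt with 4.16 counts, at 44.2% in replicate 2. The leading transcript was the same in both libraries for 3 of the 3 expressed genes with several transcripts.

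**Figure D3:**
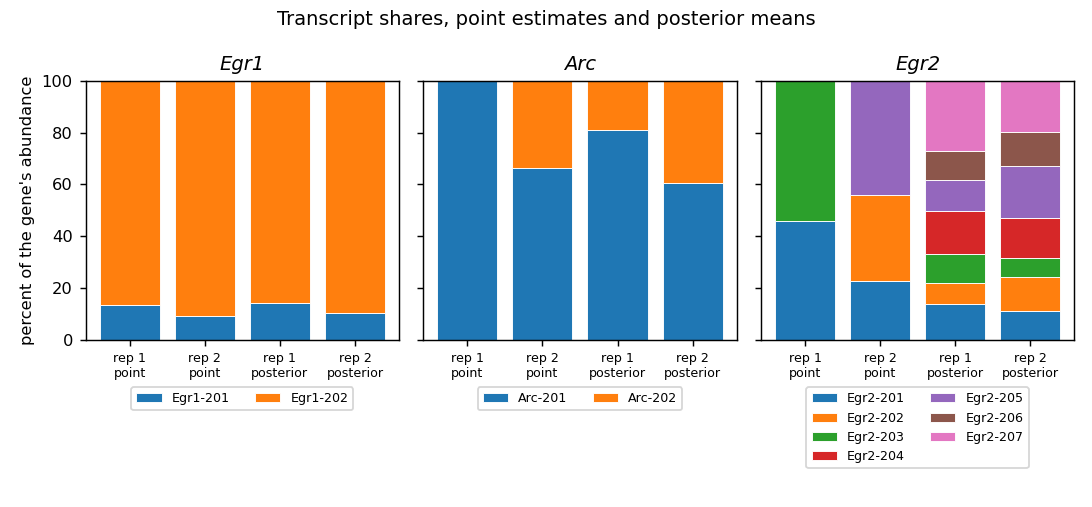
Percent of the abundance of Egr1, Arc and Egr2 taken by each listed transcript in replicate 1 and replicate 2, by the point estimate and by the posterior mean. Egr1-202 leads in every bar of Egr1, and the posterior means spread Egr2 over all 7 of its transcripts.

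Between the libraries the members differed little. Of the 10 genes, 8 had a mean of 10 or more counts and were tested, and Fosb and Egr3 were not. By the exact binomial test on TMM-normalized counts with Benjamini-Hochberg adjustment, 0 of 8 passed at an adjusted p under 0.05 and a difference of 2-fold or more, beside 1.63% of all 18269 genes tested. Without the fold threshold 2 of 8 passed, Jun and Jund, beside 19.3% of all genes, a share near the background. At an unadjusted p under 0.05 there were 3, the third being Junb. Such p-values compare 2 libraries and count only sampling noise.

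Jun was higher in replicate 1, with a log2 ratio of normalized counts (replicate 2 over replicate 1) of -0.13 and a fold of 0.917 (95% interval 0.872 to 0.964), at an adjusted p of 0.00581 by the exact binomial test. Jund gave -0.20, or 0.872-fold (0.823 to 0.925), at an adjusted p of 8.44e-05 by the same exact test. Junb gave -0.36, or 0.778-fold (0.636 to 0.951), at an adjusted p of 0.0616. With a biological coefficient of variation of 0.1 assumed in the edgeR exact test, 0 members passed at any fold, beside 0.821% of all genes. For the other 5 tested genes the interval of the fold included 1, from Fos at 0.889-fold (0.607 to 1.30) to Egr2 at 1.66-fold (0.856 to 3.41). Egr1 was at 1.08-fold (0.875 to 1.32), Arc at 0.980-fold (0.783 to 1.23) and Npas4 at 1.26-fold (0.783 to 2.05). Of the 8 tested genes 5 had a negative log2 ratio, with a median of -0.08, beside 50.8% of all tested genes and a median of -0.0026.

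**Figure D4:**
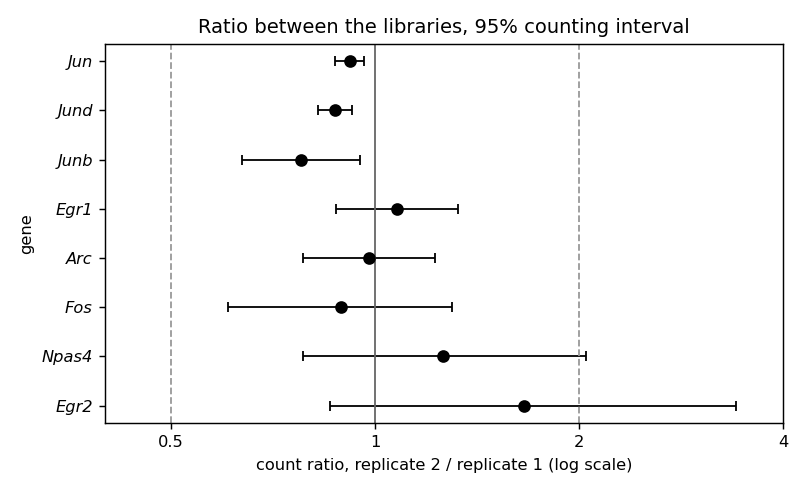
Ratio of normalized counts, replicate 2 over replicate 1, for the 8 tested genes on a log axis with 95% exact intervals, a solid line at 1 and dashed lines at 2-fold in each direction. Jun, Jund and Junb lie below 1, and the intervals of the other 5 genes cross it.

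Several marker lists of non-neuronal cells were, like the Jun genes, lower in replicate 2. Microglia markers summed to 177.61 and 140.66 TPM, with 7 of 8 members lower in replicate 2, and mural cell markers to 211.74 and 168.21 TPM, with 5 of 6 lower. Vtn alone, at 152.05 and 112.11 TPM, made up most of the difference of the mural sum. Endothelial markers summed to 217.17 and 189.46 TPM (6 of 8 lower) and meningeal fibroblast markers to 447.92 and 388.32 TPM (7 of 7 lower). Most of the difference of the endothelial sum lay in Cldn5, at 108.25 and 87.16 TPM. Erythroid markers, led by the globin gene Hba-a2, summed to 14775.2 and 11526.2 TPM (7 of 7 lower). Radial glia markers summed to 1611.27 and 1525.49 TPM, also with 7 of 7 lower. Mature neuron markers summed to 801.42 and 867.07 TPM with 2 of 9 lower, and immature neuron markers to 4491.42 and 4558 TPM with 2 of 6 lower. Epidermal markers summed to 14.61 and 25.71 TPM, and Krt5 and Krt14 were higher in replicate 2 by the 2-fold test. Heat shock genes, which encode stress-induced chaperones, summed to 1339.77 and 1349.68 TPM. None of these markers was at 0 in either library. Their part in the difference of the Jun genes was not tested.

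The signalling machinery that feeds these genes was expressed throughout. All 6 SRF and ternary complex factor genes were expressed, with a median of 10.5 ± 0.658 TPM. The SRF coactivator gene Mrtfa was at 25.9 ± 2.55 TPM, Elk1, an ERK target that binds beside SRF, at 19.4 ± 1.20 TPM, and Mrtfb at 10.5 ± 1.15 TPM. All 11 CREB and MEF2 genes passed the threshold as well (median 19.8 ± 1.08 TPM), among them the CREB coactivator genes Crtc1 at 46.5 ± 0.594 TPM and Crebbp at 35.2 ± 0.0141 TPM and Creb1 itself at 30.4 ± 0.799 TPM. The 10 MAP kinase and ribosomal S6 kinase genes were all expressed, with a median of 24.7 ± 0.0318 TPM. Among them were the ERK gene Mapk3 (88.5 ± 0.672 TPM) and the JNK gene Mapk10 (76.6 ± 4.67 TPM). The median of each of these input lists exceeded the median of the 10 immediate early genes, and 0 members of them differed between the libraries by 2-fold or more with an adjusted p under 0.05 in the exact binomial test. At any fold 3 of their 27 members did, beside the same 19.3%.

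Low levels did not extend to all genes of the early response. Of 31 other immediate early genes 29 were expressed, with a median of 8.90 ± 0.382 TPM, and Ptgs2 and Csrnp1 were not. The kinase gene Plk2 (129 ± 9.84 TPM), the G protein regulator gene Rgs2 (108 ± 3.21 TPM) and the cell cycle inhibitor gene Cdkn1a (94.7 ± 1.77 TPM) were highest, each above Jun in both libraries. Of the 30 tested, 0 differed 2-fold and 5 had an adjusted p under 0.05 at any fold in the exact binomial test, beside 1.63% and 19.3% of all genes, so the second share is near the background. Many genes of that list also have roles outside stimulation, such as growth control, and their level is not a measure of induction.

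**Figure D5:**
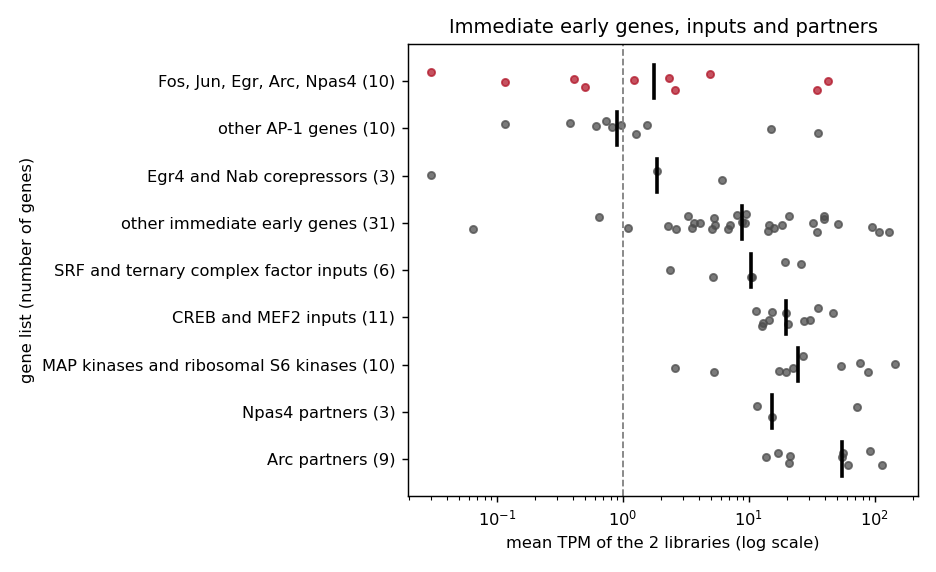
Levels in TPM on a log axis of the 10 immediate early genes and of lists of related genes, inputs and partners. Each gene has 1 point (mean of 2 libraries), with a bar at each list's median and a dashed line at 1 TPM. The input lists and the Npas4 and Arc partner lists have medians between 10 and 56 TPM, against 1.77 TPM for the 10 genes. Medians are 8.90 TPM for other immediate early genes, 1.87 TPM for Egr4 and the Nab genes and 0.890 TPM for other AP-1 genes.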

How the data were processed

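Total RNA was sequenced from 2 libraries of 1 group, and reads were processed by the authors. Per the file headers, the gene tables deposited hold expected counts, TPM and FPKM with posterior means of the same quantities, and the transcript tables add the percent of a gene's abundance that each transcript takes. FPKM values as deposited were not used. The authors' deposited notes name mm10 as the build and GENCODE M4 as the annotation. Not given in the sources used here are the aligner, the counting tool and whether strand was used.

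Genes were matched by Ensembl ID. Coordinates and transcript names came from GENCODE M21 on the same build. Expected counts were rounded and compared between the libraries with a two-sided exact binomial test on TMM library sizes (edgeR 4.0.16, R 4.3.3), adjusted by Benjamini and Hochberg over all genes whose mean count reached 10. Spike-ins were not tested and entered library sizes only in 1 alternative, which scaled by their total. Log2 ratios used 0.5 added to each count. In data simulated with counting noise only for replicate 2 against replicate 1, over 18292 genes, the test found 100 of 100 genes given a 4-fold change, 98 of 100 given a 3-fold change and 1 of 18092 left as they were. With 2 libraries of 1 group no test between conditions was possible. The labels name the replicates as biological, from separate pools. PCR copies could not be told apart, so intervals and floors cover counting error only.

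The 10 genes and the 19 gene lists were chosen with earlier results of these data known. All 10 genes are named, and of the other lists the 3 highest by mean TPM and every gene that passed the 2-fold test, apart from items not reported here; En2, Fosl2, Egr4, Nab genes, Ptgs2 and Csrnp1 were named after their values were seen. Alternatives covered posterior means, rescaled TPM, thresholds, library scaling with DESeq2 1.42.0 size factors, count filters and transcript lengths. Tests ran with scipy 1.17.1 and numpy 2.4.6 on Python 3.11.15, tables with pandas 2.3.3 and plots with matplotlib 3.10.9.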

Additional observations from a re-analysis of the deposited data

How the results depend on the processing

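No ratio of a member between the libraries changed direction under the alternatives run. Count filters and fold thresholds leave a ratio as it is. Only library scaling, posterior mean counts and the edgeR test could have changed it. With a 2-fold or 1.5-fold threshold 0 members passed in each, while 2 did with no fold threshold. The order of Jun and Jund turned with GENCODE M21 lengths and all Jund counts kept, which put Jund at 61.2 TPM. That value is too high if counts fell outside the M21 model. For Npas4 and Egr2 the order turned with posterior means. Adjusted p ranged over 10 settings from 1.71e-07 to 1 for Jun, from 1.29e-09 to 1 for Jund and from 0.0092 to 1 for Junb. Of 18269 genes, 298 differed between the libraries in the analysis reported, 526 with a 1.5-fold threshold, 3524 with none and 139 in the edgeR exact test with a preset coefficient of variation of 0.1. Where the mean count had to reach 50, 67 of 14810 genes differed. Scaling by spike-ins moved the median log2 ratio of all genes to -0.087.

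With posterior mean TPM, the log2 ratio of Jun genes to Fos genes was 5.58, that of Egr1 to Egr2 plus Egr3 was 1.26, and the median of the 10 genes was 1.96 TPM. That median was 1.88 TPM over Ensembl rows only, 3.74 TPM over expressed genes only and 2.77 TPM as a mean of log2(TPM + 1). At a threshold of 3 TPM, 3 of the 10 genes were expressed. Leaving out each replicate gave 5.99 to 6.05 for Jun against Fos, 1.87 to 2.99 for Egr1 and 1.73 to 1.82 TPM for the median, and 6 genes expressed in each case. Of 20 single-gene levels under planned settings that keep both libraries 16 stayed within 1 SD. Egr2 moved to 0.935 TPM, Fos to 1.63 TPM and Arc to 2.28 TPM with posterior means, and the cause was not tested. Over Ensembl rows Arc moved to 2.45 TPM. That rescaling raises all genes of a library alike, with Jun going from 42.4 to 45.0 TPM. Arc passed 1 SD there because its SD was small, 0.0283 TPM. No paired analysis was possible because the study has only 1 group. Depth limits Fosb, Egr3 and Egr2 most, with at most 26 counts in a library.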
